A study of Homo sapiens with 4 samples.

Results

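The cytosolic ribosomal protein genes encode the proteins of the cytoplasmic ribosome, and their transcripts were followed here after knockdown of LSD1, a histone lysine demethylase encoded by KDM1A, in the human neuroblastoma line SH-SY5Y. Genes were taken by symbol, as probe sets with exactly 1 gene symbol that names a large-subunit (RPL, RPLP) or small-subunit (RPS, RPSA) protein, without pseudogenes and without the RPS6K kinases. Of 19775 genes named in this way on the array, 60 were ribosomal protein genes, 38 of the large and 22 of the small subunit, measured by 121 probe sets. Where a gene had several probe sets, the one brightest on average across the 4 arrays stood for it. RefSeq lists 86 genes whose symbols follow the same pattern, and the other 26, among them RPL5, RPL23, RPLP0 and RPSA, had no probe set that named them alone. For 15 of those 26 the annotation gave a probe set shared with other symbols, in 11 genes with small nucleolar RNA genes only, and such probe sets were not named.

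The cells had been transfected with an siRNA against LSD1 (siLSD1, 2 arrays) or with a control siRNA (siControl, 2 arrays), and the submitters' design text describes 2 independent transfections for each. No other agent or allele is given, both groups share 1 cell line, and neither the control siRNA's sequence nor the time after transfection is stated in the labels. The RNA was read on Affymetrix U133 arrays, which carry 54675 probe sets. Unless another scaling is stated, signals below are quantile-normalized log2 values, and every fold change is siLSD1 relative to siControl. The tests therefore rest on how far repeat transfections of 1 line differed.

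A ribosome joins a small subunit, which reads the messenger RNA, to a large subunit, which makes the peptide bond, and each of its proteins is present once per ribosome apart from those of the stalk. The genes are expressed at high levels in growing cells. Their messenger RNAs start with an uninterrupted stretch of pyrimidines at the cap, the 5′ terminal oligopyrimidine (TOP) tract, through which LARP1 and the kinase complex mTORC1 control their translation. Many of the genes also host small nucleolar RNAs in their introns, and processed pseudogenes of most are spread over the genome, so that a probe can read more than 1 copy.

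Pyrimidine runs were common around the annotated start sites of these genes. Whether a run begins at the cap, as a TOP tract does, was not checked. RefSeq promoter sequences of GRCh38.p14 matched 52 of the 60 genes, and a window of 30 bases, 15 before and 15 from the annotated start, was searched for its longest run of C and T. A run of at least 7 bases was found in 38 of 46 genes (82.6%) when the copies with an L or Y suffix were set aside, in 2 of 6 such copies, and in 3060 of 15842 protein-coding genes (19.3%). The letters CTTTC were found on the sense strand, where they are part of a pyrimidine run, in 22 of the 46 genes (47.8%) and in 4.1% of all protein-coding genes. On either strand they were found in 23 of the 46 (50%) and in 6.7% of all. Windows are shown for genes described below, with the longest pyrimidine run in capitals. RPS21 and RPL37A had higher and RPS3 a lower mean after LSD1 siRNA, RPS14 had probe sets that disagreed, RPL22 and RPS27 are set beside their copies, and RPL10L is a copy whose window holds no long run.
RPS21: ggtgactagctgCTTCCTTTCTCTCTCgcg
RPL37A: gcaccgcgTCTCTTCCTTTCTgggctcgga
RPS3: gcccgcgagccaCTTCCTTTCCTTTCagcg
RPS14: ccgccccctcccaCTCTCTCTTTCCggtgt
RPL22: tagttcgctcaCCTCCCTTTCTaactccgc
RPL22L1: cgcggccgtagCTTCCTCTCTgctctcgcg
RPS27: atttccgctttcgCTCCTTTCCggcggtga
RPS27L: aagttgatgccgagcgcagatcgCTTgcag
RPL10L: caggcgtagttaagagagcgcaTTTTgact
In GRCh38.p14 these windows are chr20:62387088-62387117 for RPS21 (plus strand), chr2:216498829-216498858 for RPL37A (plus), chr11:75399503-75399532 for RPS3 (plus) and chr5:150449725-150449754 for RPS14 (minus). RPL22 is at chr1:6199581-6199610 (minus), RPL22L1 at chr3:170870181-170870210 (minus), RPS27 at chr1:153990747-153990776 (plus), RPS27L at chr15:63157463-63157492 (minus) and RPL10L at chr14:46651767-46651796 (minus). The runs measured 15 bases in RPS21, 14 in RPS3, 13 in RPL37A, 12 in RPS14, 11 in RPL22, 10 in RPL22L1, 9 in RPS27, 4 in RPL10L and 3 in RPS27L. A run is a description of the letters in these windows, and no match says only that they are not there.

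The target of the siRNA was lower on both treated arrays. KDM1A had signals of 8.40 and 8.54 on the siLSD1 arrays, against 9.79 and 9.78 on the siControl arrays, which left 40.1% of the control level. Its log2 fold change was -1.32, with a 95% interval from -1.69 to -0.95, and its adjusted p over all 11865 genes tested was 0.394 in limma. The adjusted p was 0.0433 with the replicate number as a block and 0.0444 without siControl replicate 2, and it lay between 0.137 and 0.999 under the other alternatives computed for this gene, at log2 fold changes from -1.40 to -1.14. The genes tested were those with a mean signal above 4.12, the 40th percentile of all genes. Correlations between arrays over these genes were 0.956 to 0.960 for pairs with siControl replicate 1 and 0.979 to 0.980 for the other pairs, so siControl replicate 1 stood apart. Of 9 measured noradrenergic neuroblastoma markers, 8 were above the filter level and tyrosine hydroxylase (TH) was not. All 5 fibroblast markers, among them COL1A1, also passed the filter, with mean signals from 4.34 to 8.76, whereas both measured glial markers, S100B and GFAP, were below it.

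After quantile normalization, ribosomal protein signals were nearly the same in siLSD1 and siControl cells, but the median of the group was -0.075 on the deposited scaling and 0.098 after median centring, as described further on. Of the 60 genes, 58 were bright enough to be tested, 29 with a higher and 29 with a lower mean after LSD1 siRNA, against 51.3% higher among all genes tested. The median log2 fold change was 0.0008, beside 0.0071 over all genes tested. The middle 50% of the genes lay between -0.04 and 0.04, and 50 of the 58 (86.2%) differed by less than 0.1, compared with 32.9% of all genes tested and 59.0% of the brightest 10% without the ribosomal protein genes. With limma and Benjamini-Hochberg adjustment over all genes tested, 0 ribosomal protein genes passed the threshold of 0.05 (background 0% in either direction), and 0 differed by 2-fold or more (background 0.919% higher and 0.447% lower). At an unadjusted p under 0.05, 1 gene was higher (1.72%, background 2.28%) and 0 were lower (background 1.15%). With 2 arrays a group, an exact permutation test could not give a p below 0.333.

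**Figure D1:**
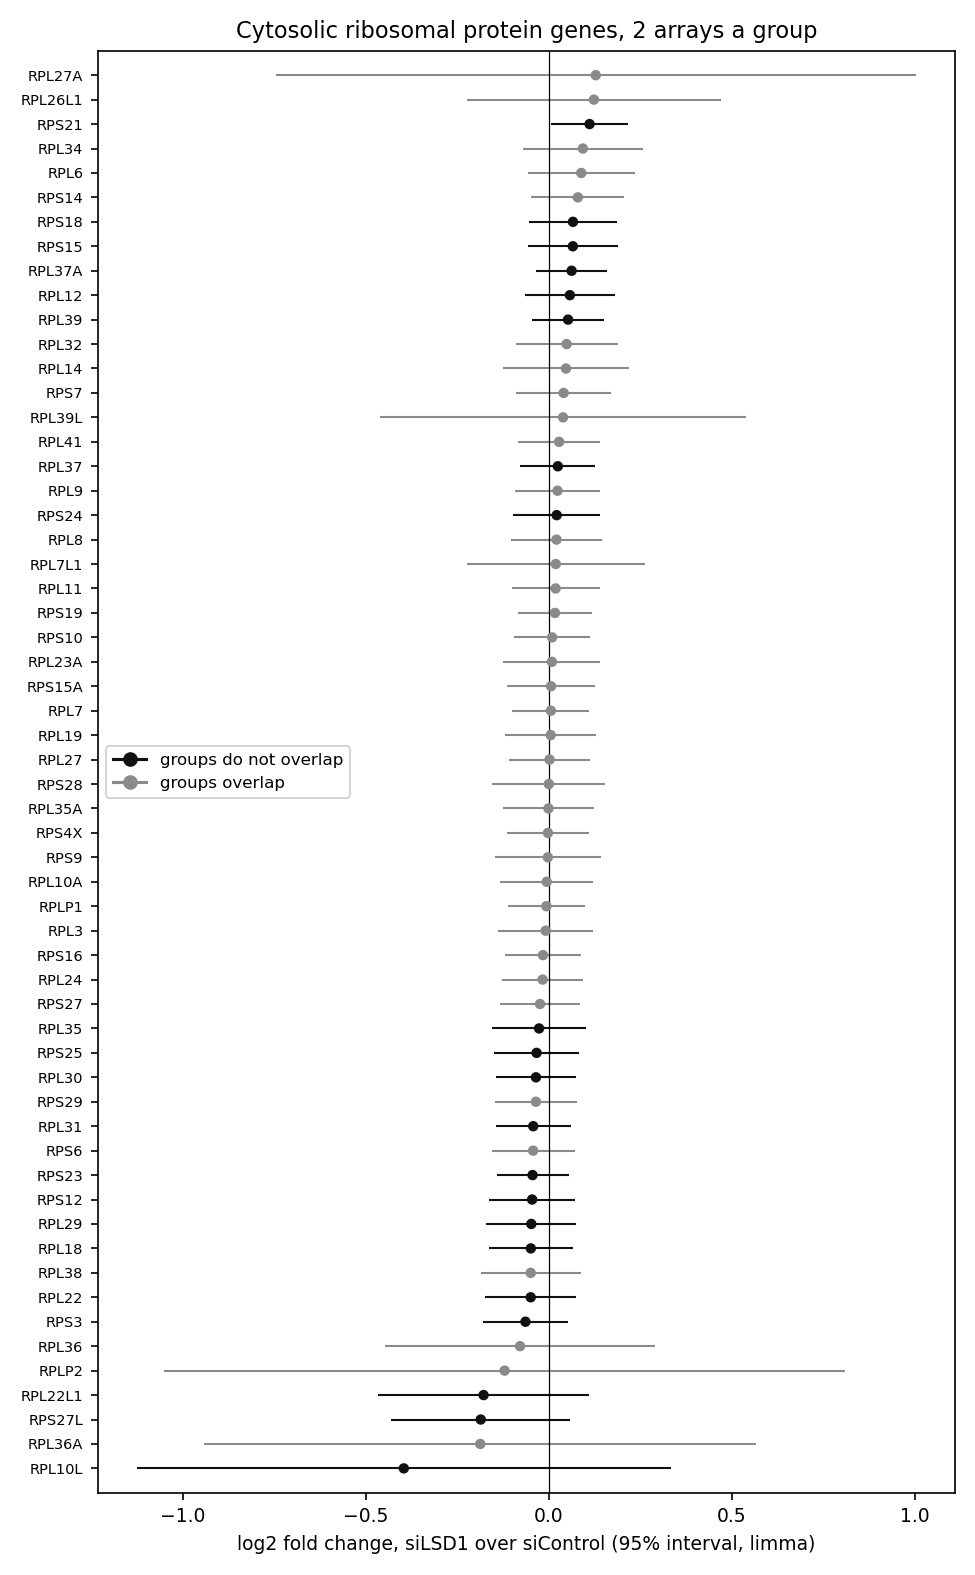
Log2 fold change, siLSD1 over siControl, of the 58 tested ribosomal protein genes (points) with limma's 95% intervals (lines), sorted by size. Black marks genes whose groups of 2 arrays do not overlap. Most intervals are narrow and cross 0, RPS21 lies just to the right of it, and the widest intervals belong to genes with dim probe sets. RPL36, with a mean signal of 11.3, also has a wide interval, from -0.45 to 0.29.

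The arrays bounded the difference closely for most of these genes on this scaling. The half-width of the 95% interval was 0.12 log2 units at the median gene, or 1.09-fold, where over all genes tested it was 0.58. For 49 of the 58 genes the whole interval lay within 1.2-fold in either direction, and for 54 within 1.5-fold. The 4 genes outside that limit, RPL10L, RPL27A, RPL36A and RPLP2, had mean signals between 5.11 and 6.57. The 49 genes with a mean above 11 and no L or Y suffix ranged from 11.32 to 12.70, close to the highest value of any probe set on an array (12.68 to 12.86 as deposited), and their median absolute log2 fold change was 0.034. Whether the signal flattens at this level was not tested. As deposited, most intervals of the 58 genes were wider and reached past 1.2-fold. That of RPL8, for example, ran from -0.32 to 0.18 as deposited, against -0.10 to 0.15 after quantile normalization.

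In 37 of the 58 genes the siLSD1 and siControl arrays overlapped. Both siLSD1 values lay above both siControl values in 8 ribosomal protein genes (13.8%, background 16.6%) and below both in 13 (22.4%, background 15.1%). The 8 higher genes were RPS21, RPS18, RPS15, RPL37A, RPL12, RPL39, RPL37 and RPS24. Among the 13 lower genes were RPL10L, RPS27L, RPL22L1, RPS3, RPL22 and RPS23. Of the large-subunit genes 20 were higher and 17 lower in mean, the median being 0.0048, and of the small-subunit genes 9 were higher and 12 lower, the median being -0.0027.

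Direction for the group as a whole depended on how arrays were scaled. As deposited, the median signal of the 58 genes was 12.31 and 12.19 on the siLSD1 arrays, against 12.35 and 12.30 on the siControl arrays. The siLSD1 replicate 2 array was thus the lowest and the other 3 lay close together. On that scaling 9 genes had a higher (background 51.2%) and 49 a lower mean, and the median log2 fold change was -0.075. Without overlap, 0 genes were higher (background 15.9%) and 16 lower (background 15.4%), and 0 had an unadjusted p under 0.05 (backgrounds 2.18% higher and 1.09% lower). Median centring raised the median of all genes tested to 0.18. On it, 54 ribosomal protein genes were higher in mean (background 78.3%) and 4 lower, and their median was 0.098. Without overlap, 40 were higher (background 36.8%) and 0 lower (background 4.78%). At an unadjusted p under 0.05 in limma, 8 were higher (background 6.18%) and 0 lower (background 0.354%). Relative to all genes tested the group's median was -0.082 as deposited. Median centring moves every gene on an array by the same amount, so it gave the same -0.082 by construction. The value was -0.0063 after quantile normalization, and 0.015 as deposited without siLSD1 replicate 2. Of the 100 brightest probe sets on the arrays, 36 named 1 ribosomal protein gene alone and 59 named at least 1, and quantile normalization, which gives every array the same distribution, takes out a shift that such probe sets share.

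**Figure D2:**
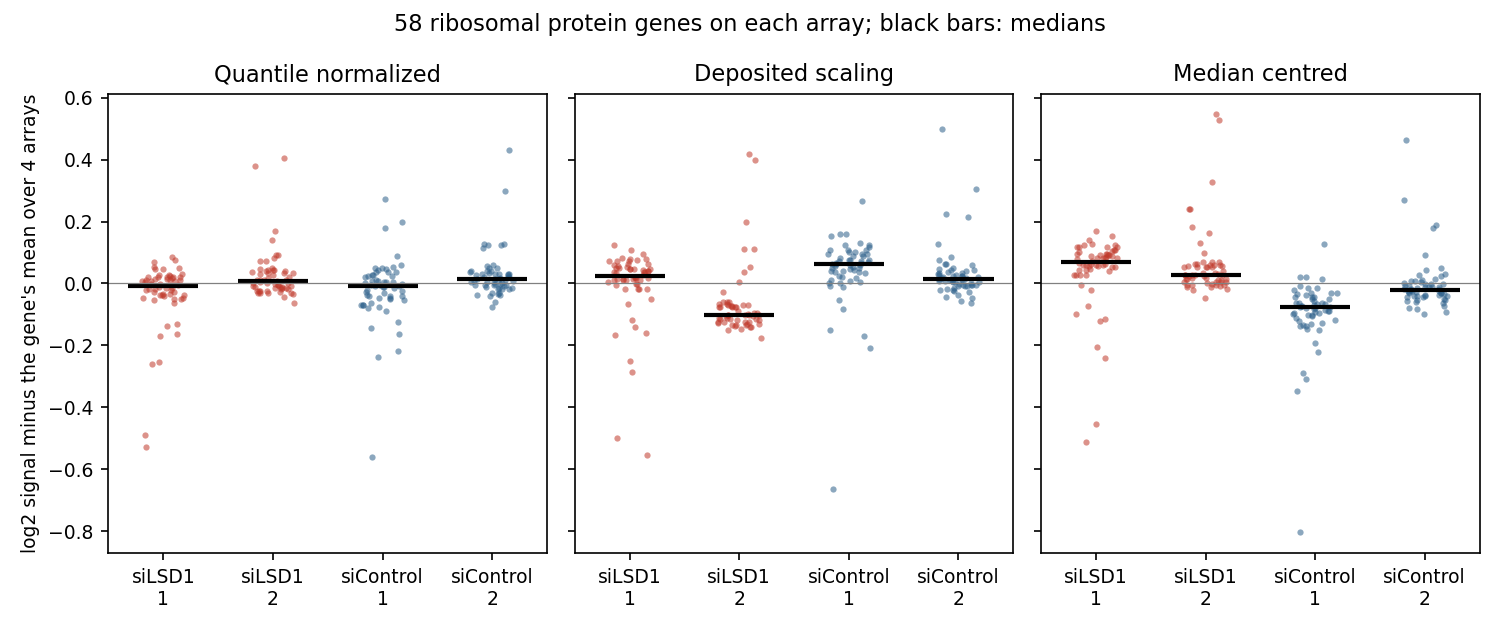
Each point is 1 of the 58 ribosomal protein genes, drawn as its log2 signal on an array minus its mean over the 4 arrays, and black bars are medians. The medians lie within 0.02 of 0 after quantile normalization, siLSD1 replicate 2 is low (-0.10) as deposited, and both siLSD1 arrays lie above both siControl arrays after median centring.

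The array with the low deposited values also carried the strongest ribosomal RNA signal, except on the dim 3′ control probe set of 28S rRNA. On the 18S rRNA control probe set of the middle region, the deposited log2 signal was 6.58 and 10.86 on the siLSD1 arrays, against 6.04 and 6.04 on the siControl arrays. The control probe set for the 5′ end of ACTB read 11.67 and 11.11 on the siLSD1 arrays, against 11.73 and 11.85 on the siControl arrays, so siLSD1 replicate 2 was lowest there too. Without that array the deposited scaling gave 28 higher and 30 lower ribosomal protein genes, with a median log2 fold change of -0.0043. After quantile normalization the median was -0.0018 without it.

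Leaving out a control array moved the whole table as well as these genes. Without siControl replicate 1, 20 of the 58 genes had a higher mean (background 56.8%), and at an unadjusted p under 0.05 in limma 0 were higher (background 3.35%) and 1, RPL36, was lower (background 1.47%). Without siControl replicate 2, 33 had a higher mean (background 43.4%), RPL34 and RPL6 were higher at an unadjusted p under 0.05 (background 9.87%) and RPS27L was lower (background 4.95%). With 1 siControl array left, the spread in either of these fits comes from the siLSD1 arrays and from other genes, the lone control being assumed to vary alike, and without siControl replicate 2 that control is the array that stood apart. In the fit without siControl replicate 2, 0 ribosomal protein genes passed the adjusted threshold, against 91 genes of the whole table in the higher direction (0.767%) and 2 in the lower (0.0169%). With the replicate number as a block, 0 ribosomal protein genes had an unadjusted p under 0.05 (backgrounds 3.87% higher and 1.38% lower) and 0 passed after adjustment (backgrounds 0.0421% higher and 0.0253% lower).

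Proteins of the small subunit were led by RPS21, the only ribosomal protein gene with an unadjusted p under 0.05. RPS21 had signals of 12.56 and 12.53 in siLSD1 cells, against 12.44 and 12.43 in siControl cells. Both siLSD1 values were higher, by 1.08-fold. The 95% interval of the log2 fold change ran from 0.0055 to 0.22, and its adjusted p in limma was 0.9997. A further, dimmer probe set of RPS21 had 8.33 and 8.54 in siLSD1 cells, against 7.90 and 8.08 in siControl cells, again without overlap. Under the deposited scaling the gene's log2 fold change was 0.039, and leaving out 1 array at a time gave 0.097 to 0.13.

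RPS14, a protein of the small subunit's platform whose reduced dosage underlies the anaemia of 5q- syndrome, was read differently by its probe sets. Its brightest probe set gave 12.48 and 12.39 in siLSD1 cells, against 12.32 and 12.39 in siControl cells, and the groups overlapped. Another probe set above the filter gave 5.14 and 4.61 in siLSD1 cells, against 6.02 and 5.56 in siControl cells, a log2 fold change of -0.91 (adjusted p = 0.995 in limma with each probe set tested singly). The remaining probe set above the filter had 3.84 and 3.92 in siLSD1 cells, against 4.316 and 4.996 in siControl cells. On the siLSD1 arrays this last probe set lay below the filter level of 4.12, so it passed the filter only through the siControl arrays and its difference is a description. A probe set of RPS14 below the filter had 0.71 and 0.90 in siLSD1 cells, against 2.67 and 2.85 in siControl cells. Which transcripts the dim probe sets read was not looked up.

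Other small-subunit genes with known roles differed little. RPS6, the substrate of the S6 kinases downstream of mTORC1, had 12.63 and 12.55 in siLSD1 cells, against 12.66 and 12.61 in siControl cells, with overlapping groups. RPS19, the gene most often mutated in Diamond-Blackfan anaemia, had 12.64 and 12.60 in siLSD1 cells, against 12.61 and 12.60 in siControl cells. RPS3, at the entry of the messenger RNA channel, had 12.32 and 12.32 in siLSD1 cells, against 12.35 and 12.41 in siControl cells. Its siLSD1 values were both lower, with a log2 fold change of -0.064 and an interval from -0.18 to 0.05. RPS18 and RPS15, both in the head of the subunit, had log2 fold changes of 0.066 and 0.065, which turned to -0.011 and -0.014 under the deposited scaling.

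Among large-subunit genes with a mean signal above 11, RPL34 and RPL6 had the highest log2 fold changes, 0.093 and 0.088. RPL6 had 12.31 and 12.29 in siLSD1 cells, against 12.14 and 12.29 in siControl cells, and RPL34 had 12.23 and 12.28 in siLSD1 cells, against 12.06 and 12.26 in siControl cells. In both genes siControl replicate 1 alone was low. Without it the log2 fold changes were 0.0091 for RPL6 and -0.0046 for RPL34. RPL11, which with RPL5 and 5S rRNA binds MDM2 when ribosome assembly fails, had 12.37 and 12.30 in siLSD1 cells, against 12.30 and 12.34 in siControl cells. RPL36 had 11.15 and 11.41 in siLSD1 cells, against 11.10 and 11.62 in siControl cells, so each group spread further than the groups differed.

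The stalk proteins recruit elongation factors to the ribosome. RPLP1 had 12.51 and 12.54 in siLSD1 cells, against 12.52 and 12.55 in siControl cells, with a log2 fold change of -0.0070 and an interval from -0.11 to 0.099. RPLP2 was read by a dim probe set, with 4.58 and 5.51 in siLSD1 cells, against 5.30 and 5.03 in siControl cells. RPL27A was likewise dim, with 6.31 and 6.95 in siLSD1 cells, against 6.01 and 6.999 in siControl cells, and so was RPL36A, with 4.97 and 5.31 in siLSD1 cells, against 5.29 and 5.36 in siControl cells. The groups overlapped in all 3, and their intervals reached at least 0.57 above and 0.75 below 0.

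The copies of ribosomal protein genes had dimmer probe sets than most other members. Mean signals of the 6 tested copies lay between 5.82 and 10.79, and the median gap between replicates was 0.15 for siLSD1 and 0.16 for siControl, where the 49 bright genes without a suffix had 0.033 and 0.038. RPL22L1, a paralogue of RPL22 that can take its place in the ribosome, had 9.85 and 9.95 in siLSD1 cells, against 10.04 and 10.11 in siControl cells. Both siLSD1 values were lower, with a log2 fold change of -0.18 and an interval from -0.47 to 0.11. The value for RPL22L1 was -0.21 as deposited, again without overlap, and -0.036 after median centring, where the groups overlapped. RPL22 had 12.07 and 12.06 in siLSD1 cells, against 12.13 and 12.10 in siControl cells, a log2 fold change of -0.05. Of the other 4 probe sets of RPL22, 3 also had both siLSD1 values lower, and all 4 had a lower mean. Over all genes tested, 15.1% were lower without overlap. Probe sets of 1 gene on the same 4 arrays are not separate observations. The value for RPL22 was -0.13 as deposited, again without overlap, and 0.048 after median centring, where the groups overlapped.

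RPS27L, a copy of RPS27 that is a transcriptional target of p53 in human cells, had 10.63 and 10.77 in siLSD1 cells, against 10.97 and 10.80 in siControl cells. Its log2 fold change was -0.19, with an interval from -0.43 to 0.058, and the groups did not overlap. The value was -0.12 without siLSD1 replicate 1, -0.0995 without siControl replicate 1, -0.0075 with the mean of all its probe sets and -0.067 after median centring, where the groups overlapped. RPS27 had 12.54 and 12.62 in siLSD1 cells, against 12.60 and 12.61 in siControl cells, and the groups overlapped. The other probe sets of RPS27L that passed the filter had log2 fold changes of -0.057 and 0.22 with overlapping groups. The genes that RPL10L and RPL26L1 are named after, RPL10 and RPL26, had no probe set of their own. The difference between a copy and its related gene was not tested for any pair.

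RPL10L, a retrogene active in the testis, had 5.33 and 5.91 in siLSD1 cells, against 6.09 and 5.94 in siControl cells. This was the lowest log2 fold change of the tested genes, -0.397, with an interval from -1.13 to 0.33, and it was -0.11 without siLSD1 replicate 1 and -0.69 without siLSD1 replicate 2. RPL39L, also known from the testis, had 8.15 and 8.45 in siLSD1 cells, against 8.12 and 8.41 in siControl cells, and RPL39 had 12.69 and 12.73 in siLSD1 cells, against 12.67 and 12.65 in siControl cells. RPL26L1 had 10.07 and 10.22 in siLSD1 cells, against 9.84 and 10.20 in siControl cells. RPL7L1, a factor of the nucleolus related to RPL7, had 10.54 and 10.69 in siLSD1 cells, against 10.56 and 10.63 in siControl cells. In all of these but RPL10L and RPL39 the groups overlapped.

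**Figure D3:**
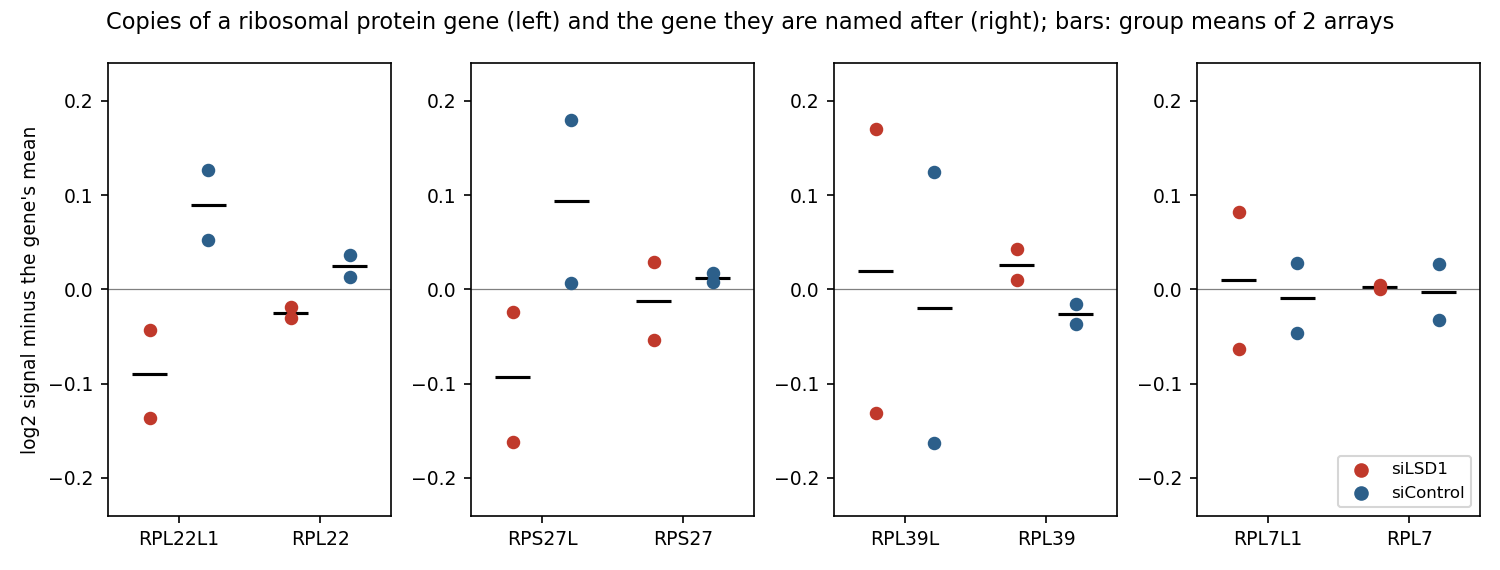
Log2 signal minus the gene's mean over 4 arrays for 4 copies and the genes they are named after, with siLSD1 points left of siControl points and bars at group means. RPL22L1 and RPS27L have both siLSD1 values below both siControl values, and the groups overlap in RPL39L and RPL7L1.

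The remaining named members were close to 0 or below the filter. RPL3, which reaches towards the peptidyl transferase centre, had 12.06 and 12.02 in siLSD1 cells, against 12.07 and 12.03 in siControl cells. RPL7 had 12.60 and 12.59 in siLSD1 cells, against 12.62 and 12.56 in siControl cells, and the X-linked RPS4X 12.45 and 12.52 in siLSD1 cells, against 12.48 and 12.50 in siControl cells. RPL3L, the striated muscle form of RPL3, was below the filter, with -1.09 and -0.41 in siLSD1 cells, against 4.25 and -0.13 in siControl cells, and RPS4Y1 was below it too.

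Further probe sets of the same genes were more scattered where they were dim. In addition to the brightest ones, 50 probe sets of 28 genes passed the filter, 28 with the sign of the gene's brightest probe set and 22 with the opposite sign. Of these, 26 lay within 0.1 of the brightest, 0 differed between the groups by 2-fold or more, and the lowest log2 fold change was -0.91, in both RPL35A and RPS14. The RPL35A probe set had 3.78 and 4.29 in siLSD1 cells, against 4.65 and 5.25 in siControl cells, and its siLSD1 mean lay below the filter level, so that it too passed through the siControl arrays. When probe sets whose names mark shared probes were left out, 28 genes stayed, with 13 higher, 15 lower and a median of -0.016.

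**Figure D4:**
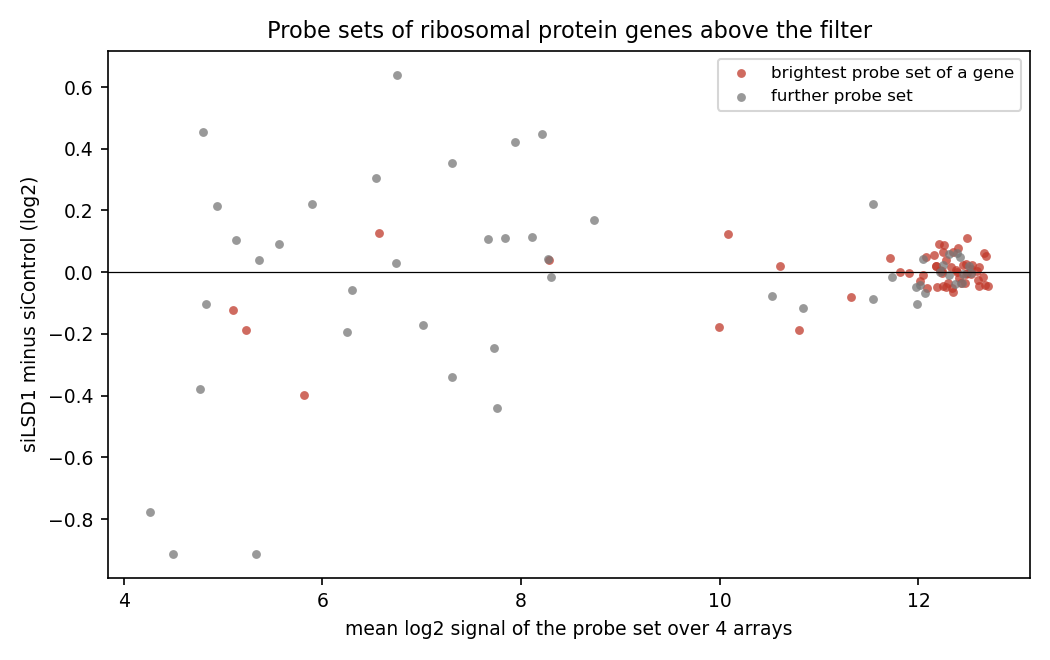
Each point is a probe set of a ribosomal protein gene above the filter, with its mean log2 signal over 4 arrays on the horizontal and siLSD1 minus siControl (log2) on the vertical axis. Above a mean of 12 the points lie close to 0, and dim probe sets spread to both sides, down to -0.91, where probe sets near the filter level of 4.12 can have passed through 1 group.

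The 14 measured genes that are mutated in Diamond-Blackfan anaemia, of 20 listed, were split into 7 higher and 7 lower, the median was 0.0008, and all 14 lay within 0.1 of 0. Among genes that the symbol rule leaves out, FAU, which encodes a small-subunit protein fused to a ubiquitin-like part, had 11.95 and 11.92 in siLSD1 cells, against 11.88 and 11.91 in siControl cells. RPL36AL had 10.47 and 10.47 in siLSD1 cells, against 10.48 and 10.53 in siControl cells. The 11 genes whose probe sets also list small nucleolar RNAs had 3 higher and 8 lower means, with a median of -0.063, and with them 32 of 69 genes were higher.

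Other genes of translation were described in the same way, by lists of known function. Of 28 tested translation factors and other TOP genes, 13 had a higher and 15 a lower mean (median -0.0048). The 3 with the smallest p had log2 fold changes of 0.20 for TMSB10, an actin monomer-binding thymosin, 0.18 for VIM, the intermediate filament vimentin, and 0.41 for EEF1D, an elongation factor subunit. TMSB10 had 12.39 and 12.39 in siLSD1 cells, against 12.17 and 12.21 in siControl cells (adjusted p = 0.9997 in limma). EEF1D had 10.89 and 11.18 in siLSD1 cells, against 10.20 and 11.03 in siControl cells. Its groups overlapped, siControl replicate 1 alone was low, and the interval ran from -0.12 to 0.95.

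Ribosome biogenesis factors numbered 28 higher and 42 lower in mean of 70 tested (median -0.031), with 1 higher (1.43%, background 2.28%) and 2 lower (2.86%, background 1.15%) at an unadjusted p under 0.05 and 0 past the adjusted threshold. POLR1A, the largest subunit of RNA polymerase I, had 6.99 and 6.79 in siLSD1 cells, against 5.55 and 6.29 in siControl cells. For this gene siControl replicate 1, the array that stood apart, was the lower control by 0.74. RSL24D1, a factor of large-subunit assembly, had 11.11 and 10.96 in siLSD1 cells, against 11.31 and 11.29 in siControl cells, and MRTO4, which holds the place of the stalk base during assembly, 8.32 and 8.11 in siLSD1 cells, against 8.82 and 8.75 in siControl cells. Their log2 fold changes were 0.97, -0.26 and -0.57, at an adjusted p of 0.9997 in limma for each.

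Of 33 tested genes of the mTORC1 pathway and TOP mRNA regulation, 19 had a higher and 14 a lower mean (median 0.043). At an unadjusted p under 0.05, 2 were higher (6.06%, background 2.28%) and 1 lower (3.03%, background 1.15%). LARP1, the TOP-binding repressor, had 10.69 and 10.75 in siLSD1 cells, against 10.45 and 10.49 in siControl cells. EIF4EBP1, the mTORC1 substrate that holds back cap-dependent initiation, had 9.74 and 9.70 in siLSD1 cells, against 10.05 and 9.98 in siControl cells. RPS6KA6, a kinase of the RSK family, had 8.27 and 8.15 in siLSD1 cells, against 6.81 and 7.57 in siControl cells. There too siControl replicate 1 was the lower control, by 0.76. The adjusted p of LARP1, EIF4EBP1 and RPS6KA6 was 0.9997 each in limma.

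Mitochondrial ribosomal protein genes, which serve the ribosome inside mitochondria, were the closest set in function and had a lower median than the cytosolic ones. Of 76 tested, 16 were higher and 60 lower in mean (background 48.7% lower). Their median log2 fold change was -0.12, and 34 were lower without overlap (44.7%, background 15.1%). MRPL23 had 9.44 and 9.46 in siLSD1 cells, against 9.80 and 9.77 in siControl cells, and MRPL44 7.65 and 7.60 in siLSD1 cells, against 8.07 and 8.04 in siControl cells. MRPS10 went the other way, with 9.44 and 9.55 in siLSD1 cells, against 8.62 and 8.97 in siControl cells. At an unadjusted p under 0.05, 1 mitochondrial gene was higher (1.32%, background 2.28%) and 1 lower (1.32%, background 1.15%), and 0 passed the adjusted threshold. Under the deposited scaling the medians were -0.11 for the mitochondrial and -0.075 for the cytosolic genes, and under median centring 0.066 and 0.098. The difference between these sets was not tested.

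**Figure D5:**
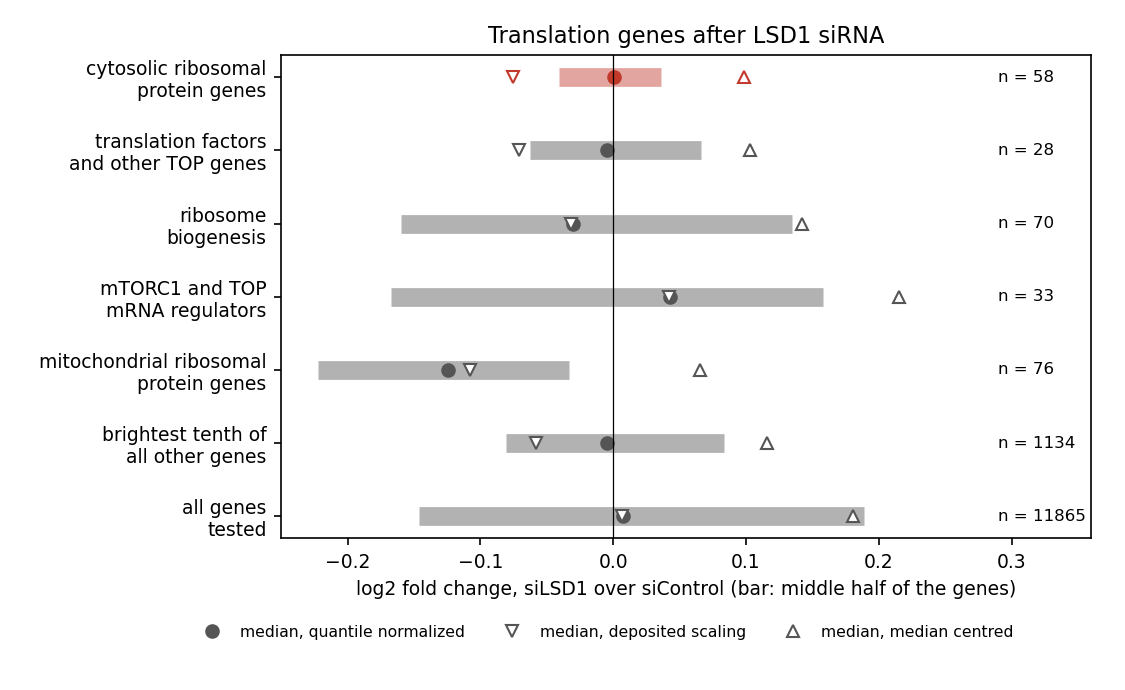
Log2 fold change, siLSD1 over siControl, of 7 gene sets: filled points are medians after quantile normalization, bars span the middle 50% of the genes, and open triangles are medians under the deposited scaling and after median centring. Among the 7 sets drawn, the cytosolic ribosomal protein genes have the narrowest bar, from -0.04 to 0.04, and the mitochondrial set has the lowest median after quantile normalization, -0.12.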

How the data were processed

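The deposited table held 1 log2 signal per probe set and array, and the RNA was extracted with RNeasy per the labels' protocols. No source used here names the summary method behind the deposited values. The log2 scale was found from the values, whose base-2 antilogs had a trimmed mean of 100.0 on each array. Array medians differed (4.09 and 4.01 for siLSD1, 4.27 and 4.17 for siControl), so the arrays were quantile normalized without the 62 control probe sets. Groups were taken from the sample titles, of which 1 shortens the target's name. Symbols came from the platform's annotation, which can be old, and matched RefSeq in 60 of 60 genes.

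The fits used limma 3.58.1 under R 4.3.3 (lmFit, eBayes with a trend, two-sided, no replicate term). Genes below the 40th percentile were not tested. The fit was tested on 20 simulated tables with independent errors and no array that stood apart. Over genes of all signal levels, 25.4% of simulated 2-fold and 79.0% of 4-fold changes passed an adjusted p of 0.05 in limma. Of the genes called, 4.68% were false. Start windows came from RefSeq (GRCh38.p14). The genes and lists were chosen with earlier results of these data known. Named with values were KDM1A, the 8 highest and 8 lowest fold changes, genes at an unadjusted p under 0.05 or below the filter, copies and their related genes, genes with textbook roles, genes with the widest gaps between replicates, and up to 3 genes per other list; no level is given for the Y-linked RPS4Y1. The number of arrays limits the precision.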

Additional observations from a re-analysis of the deposited data

Results flagged for a closer look

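Ribosomal RNA probe sets belong to the array's controls and enter no comparison. As deposited log2 signals, they read higher on each siLSD1 array than on either siControl array in 5 of 6 cases. Of all genes tested, 15.9% did so as deposited. These 6 probe sets read only 18S and 28S rRNA. The remaining one, for the 5′ region of 18S rRNA, had 5.28 and 10.30 on the siLSD1 arrays, against 5.24 and 5.33 on the siControl arrays. The mean differences, siLSD1 minus siControl, were 2.64 and 2.68 for the 3′ and middle probe sets of 18S rRNA and 0.25, 2.11 and 2.01 for the 3′, 5′ and middle probe sets of 28S rRNA. They came mainly from siLSD1 replicate 2. The 5′ probe set of 28S rRNA, for example, had 7.46 and 11.35 on the siLSD1 arrays, against 7.14 and 7.45 on the siControl arrays, so that siLSD1 replicate 1 exceeded the higher control by 0.012. The part of this signal in the ribosomal protein values was not tested beyond the values without that array.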

How the results depend on the processing

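No ribosomal protein gene passed the adjusted threshold in limma under any of the 15 alternatives (0 each). At an unadjusted p under 0.05, main values were 1 higher and 0 lower. The higher count was 0 under the deposited scaling (with and without siLSD1 replicate 2), without a filter, without shared-probe sets, without the variance trend and with the replicate block, 8 under median centring, and 0 to 2 with 1 array left out. The lower count was 1 with the mean of all probe sets, without shared-probe sets and with each probe set tested singly, and 0 to 1 with 1 array left out. The median log2 fold change was -0.0753 as deposited, 0.0984 under median centring, 0.0186 with the mean of all probe sets, -0.0158 without shared-probe sets and -0.0163 to 0.0087 with 1 array left out. Genes with a higher mean numbered 29 of 58, but 9 as deposited, 54 under median centring, 13 of 28 without shared-probe sets, 54 of 108 with each probe set tested singly, and 20 (without siControl replicate 1) to 33 with 1 array left out. The alternatives that add probe sets listing small nucleolar RNAs, or join the deposited scaling to leaving out siLSD1 replicate 2, were chosen after seeing the data.

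The replicate block called 8 genes of the whole table, 0 of them ribosomal, against 0 without it; samples with the same number share only that number (deviations from group means correlated at 0.05, with 2 pairs). Of 306 values of the 27 named genes under the alternatives, 43 changed sign. As deposited these were RPS18 (-0.0113), RPS15 (-0.0143), RPL7L1 (-0.0297), RPL7 (-0.0665), RPL11 (-0.0558) and RPS19 (-0.0505). Under median centring they were RPLP2 (0.0163), RPL36 (0.0182), RPS3 (0.0515), RPL22 (0.0482), RPL3 (0.092), RPS4X (0.1008), RPS27 (0.0794), RPLP1 (0.0896) and RPS6 (0.06). With the mean of all probe sets they were RPS14 (-0.8906), RPS15 (-0.3649), RPS4X (0.0292), RPS27 (0.0884) and RPLP1 (0.1419), and without shared-probe sets RPS14 (-0.9125). With 1 array left out, values ran from -0.5876 to 0.3454 for RPLP2, -0.3372 to 0.1792 for RPL36, -0.3678 to 0.6237 for RPL27A, -0.1121 to 0.1894 for RPL39L, -0.0535 to 0.2993 for RPL26L1, -0.0046 to 0.1901 for RPL34, -0.0534 to 0.091 for RPL7L1, -0.0288 to 0.0111 for RPL3, -0.0244 to 0.0352 for RPL7, -0.0374 to 0.032 for RPS4X, -0.0658 to 0.0172 for RPS27, -0.0229 to 0.0089 for RPLP1, -0.0177 to 0.0545 for RPL11 and -0.0017 to 0.0349 for RPS19. The mean of all probe sets also averages in probe sets below the filter. Their mean signals were 3.50 in RPS15, 3.57 in RPS27, 0.09 in RPLP1 and 1.78 in RPS14. Their siLSD1 minus siControl differences were -0.80, 0.20, 0.29 and -1.95, in the same order. In RPS4X both probe sets passed the filter. Apart from the scalings, the left-out arrays and the choice of probe sets, whose construction shifts these values, the cause was not tested.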
